A study of Rattus norvegicus with 24 samples.

Results

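The immediate early genes are a set of 10 genes, Fos, Fosb, Jun, Junb, Egr1, Nr4a1, Atf3, Ier2, Ier3 and Dusp1, chosen by name as genes that a stimulus switches on fast. Of these 10, 8 had a row among the 23095 genes of the table, and all 8 had enough counts to be tested. Junb and Dusp1 were not analysed here. RNA was sequenced in bulk from the dorsal skin of Sprague-Dawley rats at day 7 after an injection of T-gel, the series' name for its biodegradable polymer gel, or of saline. The groups were gel injected intradermally, into the skin itself (ID gel), saline injected intradermally (ID saline), gel injected subcutaneously, beneath the skin (SC gel), and saline injected subcutaneously (SC saline), with 6 libraries in each group and 24 in all. The labels give no age, sex or further allele, and do not say that the replicates came from separate animals, so a p-value measures the spread between these samples, which may be technical.

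Immediate early genes are transcribed within minutes of a growth factor, cytokine, stretch or wound signal, because the factors that switch them on are already in the cell and no new protein is needed. MAP kinases act on serum response factor and its partners at the CArG box and on CREB at the cAMP response element, and the first wave of transcripts then encodes factors such as AP-1 that drive a second wave. The messages are short-lived, and in skin they are known for their quick response to cutting and for their part in keratinocyte and immune activation. Not every gene of the set is a transcription factor: Ier3 encodes a small protein of cell survival and stress signalling.

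The stretches of 250 bases upstream of the annotated start are shown for Egr1, Nr4a1 and Ier2, since these 3 genes carry motifs of that first wave, Nr4a1 as a gene called at both sites and Egr1 and Ier2 as genes called at neither. The sequences are from RefSeq on build GRCr8, read 5′ to 3′ on the strand of the gene, and 4 of the 8 genes matched an entry (the fourth is Fosb). Capitals mark matches to the CArG box or to TGACG, the core of the cAMP response element, searched on both strands, so that TGACG also appears as CGTCA.
Egr1 (chr18:26736828-26737077, plus strand): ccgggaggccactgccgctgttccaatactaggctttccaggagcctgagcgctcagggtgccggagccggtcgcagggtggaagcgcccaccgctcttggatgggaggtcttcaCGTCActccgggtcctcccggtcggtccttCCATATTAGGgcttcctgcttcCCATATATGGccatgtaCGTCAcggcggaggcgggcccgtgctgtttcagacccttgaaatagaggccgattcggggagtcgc
Nr4a1 (chr7:134259888-134260137, plus strand): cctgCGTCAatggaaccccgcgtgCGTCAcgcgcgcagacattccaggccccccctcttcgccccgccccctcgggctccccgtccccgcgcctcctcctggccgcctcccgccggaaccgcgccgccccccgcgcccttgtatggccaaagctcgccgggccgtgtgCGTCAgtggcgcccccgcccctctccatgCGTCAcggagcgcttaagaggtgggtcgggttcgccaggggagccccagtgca
Ier2 (chr19:40399123-40399372, plus strand): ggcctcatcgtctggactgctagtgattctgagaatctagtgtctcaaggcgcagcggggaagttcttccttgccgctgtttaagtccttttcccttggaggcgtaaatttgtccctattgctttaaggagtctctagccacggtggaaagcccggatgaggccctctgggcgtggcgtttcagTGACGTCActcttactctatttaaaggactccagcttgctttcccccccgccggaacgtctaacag
The Egr1 stretch held the CArG box at 2 places, 105 to 96 and 83 to 74 bases before the start, and TGACG at 2 places. Of 33469 stretches of the same length in the table, 1.5% held at least 1 CArG box and 0.0209% held at least 2. The Nr4a1 stretch held TGACG at 4 places and no CArG box, and 0.173% of all stretches held TGACG at 4 places or more. In Ier2 the matches to TGACG overlapped, 1 on each strand, within the full palindrome TGACGTCA, which 1.59% of all stretches held. The AP-1 site TGANTCA was found in none of these 3 stretches nor in that of Fosb, which held none of the motifs searched, and 6.34% of all stretches held it. A match describes the letters in the window and not a bound site. The 3 stretches were shown because they held motifs, and the cut-offs of 2 and 4 places are their own counts. The shares are therefore a description and not a test, and the other stretches were not matched for base content.

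Levels are given as CPM, counts relative to the TMM-scaled library total, and a log2 fold change is the fitted one, gel over saline, ± SE. A gene was called where edgeR's quasi-likelihood test gave an adjusted p under 0.05 after Benjamini-Hochberg adjustment over the 14763 genes tested. The libraries held 14024353 to 18821730 counts. As a description of tissue content, 7 fibroblast genes summed to at least 27686 CPM in every library. The 8 keratinocyte genes matched of 12 listed summed to at least 1560 CPM. Skeletal muscle genes summed to 47951 to 62063 CPM in ID saline and 28724 to 72861 CPM in SC saline. They summed to 39.3 to 16276 CPM in ID gel and 50.3 to 1672 CPM in SC gel, so gel and saline libraries differed in muscle transcripts. Libraries 4 to 6 of SC gel stood apart from libraries 1 to 3 in 5 of the 8 genes, as described with their values further on, and the labels give no batch for these numbers.

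In ID gel against ID saline, Atf3 and Ier3 rose and Nr4a1 fell, so that 3 of 8 genes were called, where 73.6% of all genes tested were (36.6% higher and 37% lower). The same 3 genes did not overlap between ID gel and ID saline, where 56.5% of all genes did not. In SC gel against SC saline, 4 of 8 were called, with Fosb and Atf3 higher and Jun and Nr4a1 lower, where 50.8% of all genes were (24.7% higher and 26.1% lower). Fosb and Nr4a1 did not overlap between SC gel and SC saline, where 25% of all genes did not. Fos, Egr1 and Ier2 were called at neither site. The median log2 fold change of the 8 genes was 0.13 at the ID site and -0.10 at the SC site, beside -0.014 and -0.0039 for all genes tested. The effects differed between the sites in 5 of the 8 genes, Fosb, Jun, Nr4a1, Atf3 and Ier3, where 55.8% of all genes differed. The difference was positive in Jun, Atf3 and Ier3 (32.8% of all genes) and negative in Fosb and Nr4a1 (23% of all genes). The 2 site effects rest on separate saline groups.

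**Figure D1:**
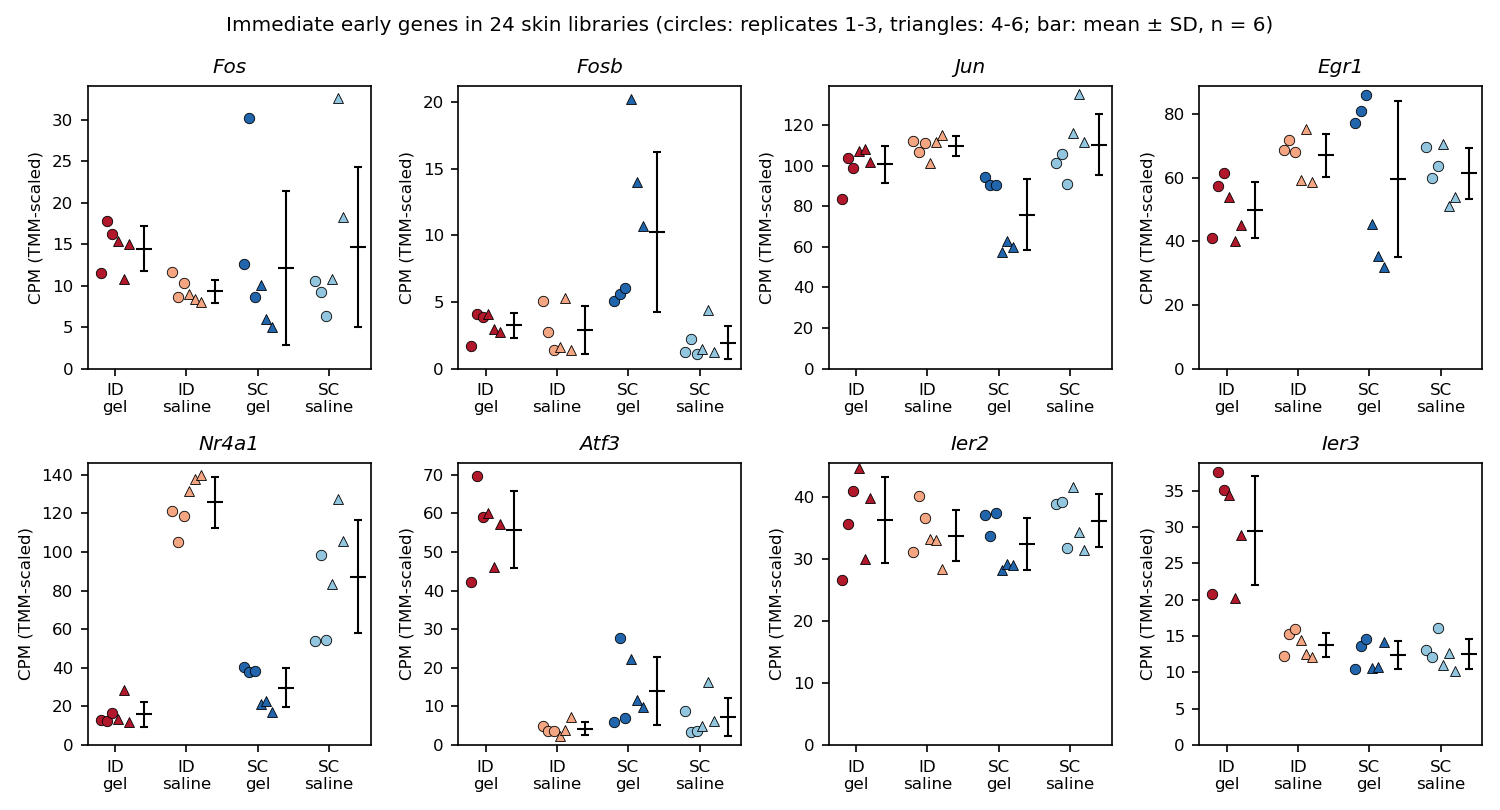
CPM (y axis, from 0) of the 8 genes in each of the 24 libraries, by group (x axis), with circles for replicates 1 to 3, triangles for replicates 4 to 6 and a bar for the mean ± SD (n = 6). Atf3 lies between 42.3 and 69.8 CPM in ID gel and at no more than 27.7 CPM in the other groups, and Nr4a1 is lower in both gel groups than in their saline groups without overlap.

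Fos and Fosb encode leucine zipper proteins that pair with a Jun protein to form AP-1. Fos (chr6:105121170-105124036, plus strand in the file) measured 10.8 to 17.8 CPM in ID gel with a median of 15.1, against 8.05 to 11.6 CPM in ID saline with a median of 8.75. All ID gel libraries lay above the median of ID saline, and the ranges overlapped at their edge. The log2 fold change of Fos was 0.63 ± 0.37 (adjusted p = 0.127, edgeR's quasi-likelihood test). Under the skin, Fos spanned 5.03 to 30.2 CPM in SC gel (median 9.35) and 6.36 to 32.6 CPM in SC saline (median 10.7). The spread within each SC group was larger than the difference between them, -0.28 ± 0.36 on the log2 scale (adjusted p = 0.55, edgeR). Fos was called at the ID site when the spread was estimated from the ID groups alone (adjusted p = 0.00109, edgeR), and without SC gel 2 it was called lower at the SC site (-0.76, adjusted p = 0.0467, edgeR).

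Fosb (chr1:78954115-78961465, minus strand), whose product can replace that of Fos in AP-1, rose at the SC site. It measured 5.04 to 20.2 CPM in SC gel (median 8.35), against 1.09 to 4.39 CPM in SC saline (median 1.36), and the groups did not overlap. The fold change was 5.23, or 2.39 ± 0.43 on the log2 scale (adjusted p = 6.9e-05, edgeR). In ID gel Fosb ranged over 1.72 to 4.12 CPM (median 3.39), against 1.37 to 5.27 CPM in ID saline (median 2.18). The ID gel range lay inside that of ID saline, with a log2 fold change of 0.16 ± 0.42 (adjusted p = 0.748, edgeR). The ID effect minus the SC effect was -2.23 ± 0.60 (adjusted p = 0.00292, edgeR). Over the 24 libraries Fosb had the fewest counts of the 8 genes, 1793, with 97 to 303 per library in SC gel and 20 to 77 in ID saline. In SC gel 4, 5 and 6, though, Fosb had 303, 266 and 187 counts against 151, 113 and 88 for Fos.

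In SC gel the rise of Fosb was uneven. Libraries 4, 5 and 6 held 20.2, 14.0 and 10.7 CPM, and libraries 1, 2 and 3 held 5.04, 5.58 and 6.01 CPM. The higher libraries were also those with the most red cell transcripts, 26321 to 32231 summed CPM over the 3 red cell genes matched of 5 listed, against 1550 to 2933 in libraries 1 to 3. The same sum was 803 to 9362 CPM in ID gel, 1288 to 10257 CPM in ID saline and 6077 to 19937 CPM in SC saline. It also parted libraries 4 to 6 from 1 to 3 in ID gel (4435 to 9362 against 803 to 1757 CPM). The same held in ID saline (4306 to 10257 against 1288 to 2770 CPM). Mean Fosb in libraries 4 to 6 and 1 to 3 was 3.25 and 3.22 CPM in ID gel. In ID saline these means were 2.77 and 3.05 CPM. Keratinocyte genes summed to 14066 to 21566 CPM in SC gel and 5778 to 7793 CPM in SC saline, with 6 of 8 higher and 1 lower, and to 1560 to 5702 CPM in ID gel and 5953 to 11313 CPM in ID saline, with 8 of 8 lower. Mast cell genes summed to 141 to 244 CPM in SC gel and 83.4 to 108 CPM in SC saline, with 3 of 5 tested higher and Mcpt1 at 0 throughout. Neutrophil genes summed to 85.7 to 224 CPM in SC gel and 53.0 to 67.8 CPM in SC saline, with 5 of 7 higher and 1 lower. The keratinocyte, mast cell and neutrophil sums did not overlap between SC gel and SC saline. Nor did the skeletal muscle sum, which was lower in SC gel. The part of these cell types in the result was not tested, and in bulk RNA fewer cells of a type and less RNA per cell cannot be told apart. As a description, the fitted log2 fold change of Fosb against SC saline was 1.53 for libraries 1 to 3 and 2.94 for libraries 4 to 6. This division was chosen with earlier results of these data known, so the values are no separate test. With gel libraries 1 to 3 alone, the difference between sites was -1.37 and was not called (adjusted p = 0.0963, edgeR).

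Jun (chr5:109893145-109897656, minus strand), the founding AP-1 partner, was lower in SC gel. It measured 57.4 to 94.3 CPM in SC gel (median 76.8) and 91.0 to 136 CPM in SC saline (median 109), with a narrow overlap. The log2 fold change was -0.54 ± 0.12 (adjusted p = 0.000541, edgeR). In ID gel Jun measured 83.8 to 108 CPM (median 103), against 102 to 115 CPM in ID saline (median 112), a log2 fold change of -0.12 ± 0.12 (adjusted p = 0.342, edgeR). The difference between sites, 0.42 ± 0.16, was close to the threshold (adjusted p = 0.0361, edgeR) and was lost in 18 of the 24 fits without 1 library and in 8 of 12 other settings. Jun's site difference was 0.35 with RLE factors (adjusted p = 0.083), 0.044 on the FPKM scale (adjusted p = 0.838, limma) and 0.040 with gel libraries 1 to 3 alone (adjusted p = 0.834, edgeR). With gel libraries 4 to 6 alone it was 0.81. That value is a description only, since libraries 4 to 6 of SC gel were already seen to hold the lower Jun. With SC gel libraries 1 to 3 alone, Jun was not called against SC saline (-0.24, adjusted p = 0.0709, edgeR).

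**Figure D2:**
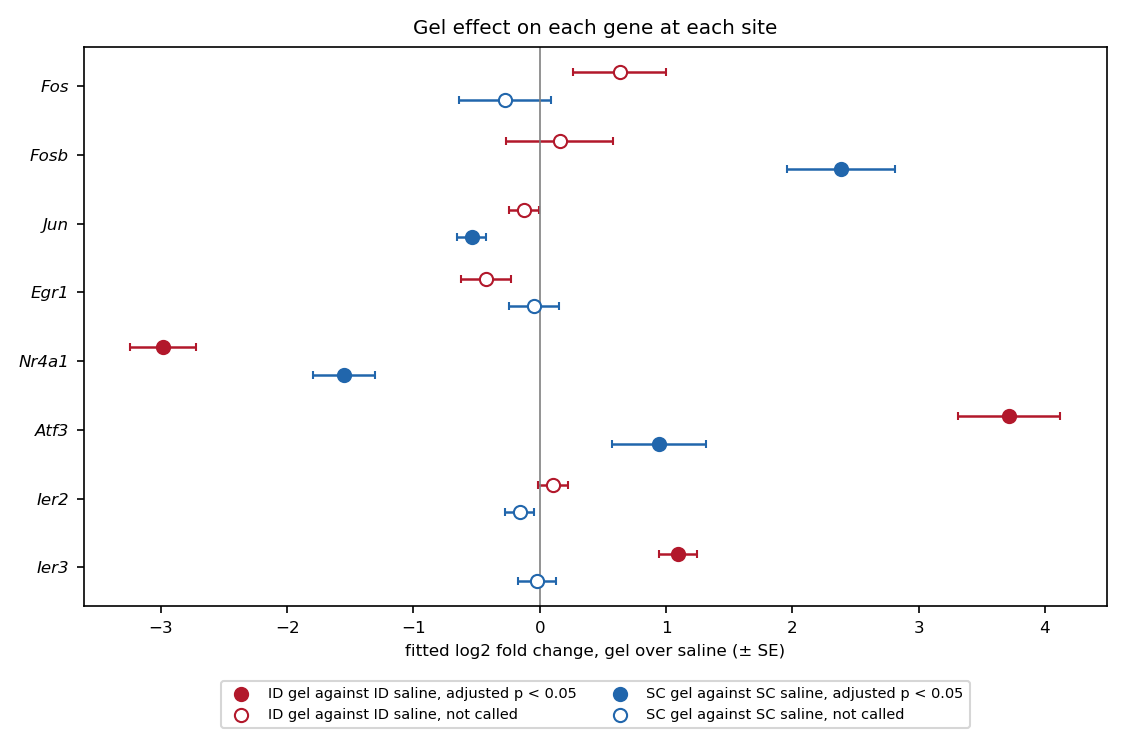
Fitted log2 fold change, gel over saline (x axis, ± SE), of each gene (y axis) at the ID site (red) and the SC site (blue), filled where the adjusted p was under 0.05. Nr4a1 is lower at both sites, at -2.98 for the ID site and -1.55 for the SC site, while Fosb (2.39) rises at the SC site and Ier3 (1.10) at the ID site.

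Egr1 (chr18:26462981-26466766, plus strand in the file) encodes a zinc finger factor that acts on growth factor, matrix and clotting genes. It measured 40.2 to 61.3 CPM in ID gel (median 49.5) and 58.7 to 75.3 CPM in ID saline (median 68.4). All ID gel libraries were below the median of ID saline, yet the log2 fold change of -0.43 ± 0.20 just missed the threshold (adjusted p = 0.055, edgeR). It was called lower in 10 of 14 other settings, among them the DESeq2 Wald test (adjusted p = 0.0382), RLE factors (adjusted p = 0.0408) and a fit with the replicate number as a block (adjusted p = 0.0257), and in 2 of 12 fits without 1 library. Egr1 measured 31.9 to 86.1 CPM in SC gel (median 61.2) and 51.0 to 70.5 CPM in SC saline (median 61.7), and the fitted difference of -0.05 ± 0.20 (adjusted p = 0.864, edgeR) changed sign on the FPKM scale, to 0.087.

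The SC gel libraries split around that mean. Egr1 measured 77.2, 81.0 and 86.1 CPM in SC gel libraries 1, 2 and 3, all above every SC saline library, and 45.3, 35.5 and 31.9 CPM in libraries 4, 5 and 6, all below every SC saline library. As a description of this split, the fitted log2 fold change against SC saline was 0.44 for libraries 1 to 3 and -0.70 for libraries 4 to 6.

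Nr4a1 (chr7:132374840-132389297, plus strand in the file) encodes an orphan nuclear receptor that is induced by the T cell receptor, cytokines, exercise and cAMP. It fell at both sites. It measured 11.7 to 28.5 CPM in ID gel (median 13.2), against 105 to 140 CPM in ID saline (median 126). Every ID gel library lay far below every ID saline library, with ID saline 7.91 times higher (log2 fold change -2.98 ± 0.26, adjusted p = 4.84e-10, edgeR). In SC gel it measured 17.3 to 40.6 CPM (median 30.4), against 54.1 to 127 CPM in SC saline (median 90.9), again without overlap and with a log2 fold change of -1.55 ± 0.25 (adjusted p = 1.68e-05, edgeR). The fall was larger at the ID site by 1.43 ± 0.34 (fitted difference -1.43, adjusted p = 0.00113, edgeR), but with gel libraries 4 to 6 alone the difference between sites was -0.75 and was not called (adjusted p = 0.127, edgeR).

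Skeletal muscle genes, like Nr4a1, were lower in both gel groups than in saline, but the 2 sites ranked differently. Summed over the 9 muscle genes matched of 10 listed, they measured 39.3 to 16276 CPM in ID gel and 47951 to 62063 CPM in ID saline, and 50.3 to 1672 CPM in SC gel and 28724 to 72861 CPM in SC saline. Of these genes, 8 fell and 1 was not called at the ID site, and 9 of 9 fell at the SC site. Their median log2 fold change was -4.227 at the ID site and -6.745 at the SC site, whereas Nr4a1 fell more at the ID site. In ID gel against SC gel, 6 of the 9 were higher, 0 were lower and 3 were not called, whereas Nr4a1 was lower (-0.91). Myh2 and Myh7 were at 0 in some libraries of both gel groups, and Ckm and Acta1 in some of SC gel. The ID gel library with the most muscle, ID gel 5, also had the most Nr4a1, 28.5 CPM, and SC saline 1 and 3, with the least muscle among the saline libraries, had the least Nr4a1 among them, 54.1 and 54.5 CPM. Within SC gel, library 2 held 61.5 summed CPM of muscle genes and 37.8 CPM of Nr4a1, and library 1 held 1672 and 40.6. Library 5 of SC gel held 67.8 summed CPM of muscle genes and 23.0 CPM of Nr4a1. Smooth muscle and pericyte genes summed to 127 to 449 CPM in ID gel and 678 to 842 CPM in ID saline, with 6 of 6 lower. Their sums were 449 to 660 CPM in SC gel and 653 to 1059 CPM in SC saline, with 3 of 6 lower. T cell genes went the other way at the ID site, 38.4 to 102 CPM in ID gel and 3.26 to 5.30 CPM in ID saline. The part of muscle or of these other cell types in the fall of Nr4a1 was not tested.

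**Figure D3:**
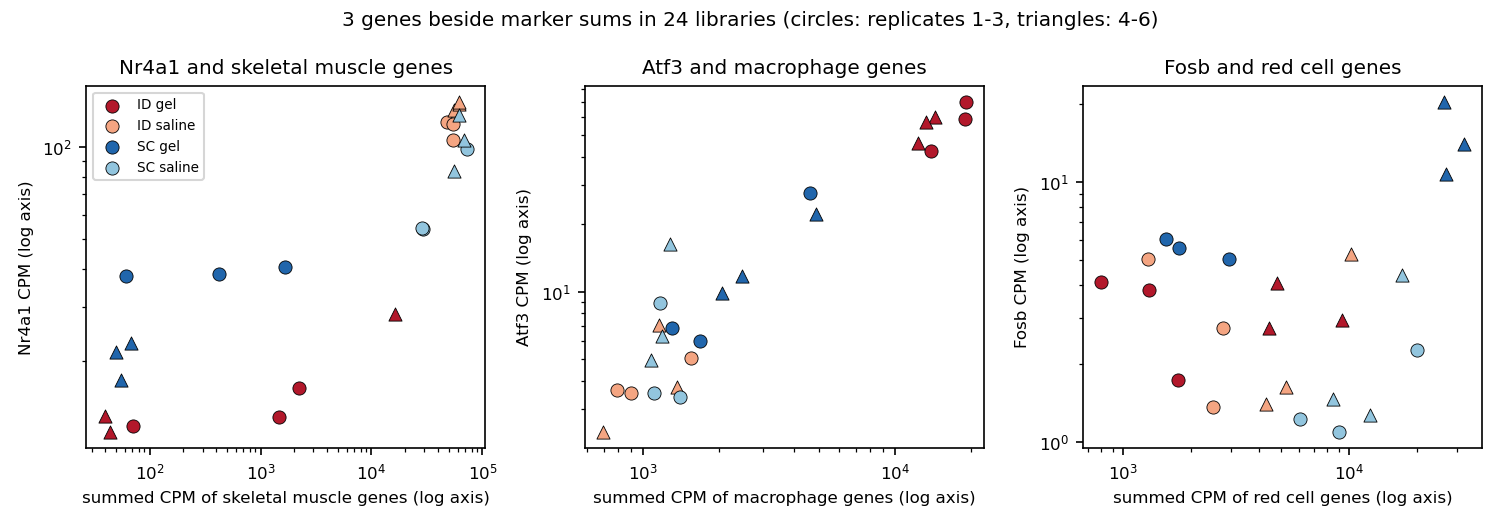
CPM of Nr4a1, Atf3 and Fosb (y axes, log) against the summed CPM of skeletal muscle, macrophage and red cell genes (x axes, log) in the 24 libraries, with circles for replicates 1 to 3 and triangles for 4 to 6. ID gel 5, with 16276 summed CPM of muscle genes, has the highest Nr4a1 of its group, and SC gel 2 and 4, with 4615 and 4869 of macrophage genes, have the highest Atf3 of theirs.

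Atf3 (chr13:102751321-102764631, minus strand), a factor of the ATF and CREB family that is induced by stress and restrains inflammatory genes in macrophages, gave the largest change of the 8 genes. It measured 42.3 to 69.8 CPM in ID gel (median 58.3), against 2.37 to 7.14 CPM in ID saline (median 3.71). The groups were far apart, with a fold change of 13.2 (log2 fold change 3.72 ± 0.41, adjusted p = 2e-08, edgeR). In SC gel it measured 6.02 to 27.7 CPM (median 10.8), against 3.38 to 16.3 CPM in SC saline (median 5.65), and these groups overlapped. The log2 fold change there was 0.94 ± 0.37 (adjusted p = 0.039, edgeR), and the effect was larger at the ID site by 2.77 ± 0.54 (adjusted p = 0.000136, edgeR). The SC call was lost without SC gel 2 (adjusted p = 0.136), SC gel 4 (0.0906), SC saline 3 (0.0769), SC saline 4 (0.0708) or SC saline 6 (0.0602), and with limma voom (adjusted p = 0.0604).

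The summed CPM of 9 macrophage genes was 12392 to 19107 in ID gel and 695 to 1553 in ID saline, and 1304 to 4869 in SC gel and 1080 to 1410 in SC saline. At the ID site 7 of these 9 rose and 2 were not called, and at the SC site 4 rose and 1 fell. SC gel 2 and 4 had the highest Atf3 of their group, 27.7 and 22.2 CPM, and the highest macrophage sums, 4615 and 4869 CPM. SC saline 5 had 16.3 CPM of Atf3 at a macrophage sum of 1287, within the range of its group. The part of macrophages in the rise of Atf3 was not tested.

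Genes of the integrated stress response, in which Atf4 drives Atf3, moved unevenly beside it. Ddit3, which encodes the stress factor CHOP, rose at both sites, by 2.18 ± 0.18 in ID gel against ID saline (adjusted p = 1.69e-10, edgeR) and by 0.46 ± 0.17 in SC gel against SC saline (adjusted p = 0.0321, edgeR). Trib3, a pseudokinase gene downstream of CHOP, rose by 1.84 at the ID site and 1.24 at the SC site. Chac1, which encodes an enzyme that breaks down glutathione and is another target of Atf4, fell by 1.75 at the ID site and by 2.49 at the SC site. Atf4 itself rose by 0.34 at the ID site (adjusted p = 0.00191, edgeR) and gave -0.13 at the SC site (adjusted p = 0.228, edgeR). Ddit4, an inhibitor of mTOR signalling, fell by 0.78 at the ID site and gave 0.23 at the SC site (adjusted p = 0.0936, edgeR).

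Ier3 (chr20:2928378-2929583, minus strand) rose at the ID site. It measured 20.2 to 37.5 CPM in ID gel (median 31.7), against 12.1 to 16.0 CPM in ID saline (median 13.5), without overlap and with a fold change of 2.14 (log2 fold change 1.10 ± 0.15, adjusted p = 6.69e-07, edgeR). In SC gel it measured 10.5 to 14.6 CPM (median 12.2), against 10.2 to 16.2 CPM in SC saline (median 12.4). The SC ranges lay almost on each other, and the fitted difference of -0.02 ± 0.15 (adjusted p = 0.922, edgeR) was 0.20 on the FPKM scale. The site difference of 1.12 ± 0.21 (adjusted p = 0.000111, edgeR) was called in each of the 12 other settings and 24 fits without 1 library.

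Ier2 (chr19:23494184-23499211, plus strand in the file), a nuclear protein gene with a role in transcription and cell motility, was called at neither site. It measured 26.5 to 44.6 CPM in ID gel (median 37.7), against 28.4 to 40.1 CPM in ID saline (median 33.1), and 28.2 to 37.3 CPM in SC gel (median 31.4), against 31.4 to 41.5 CPM in SC saline (median 36.6). The log2 fold changes of Ier2, 0.10 ± 0.12 at the ID site (adjusted p = 0.43, edgeR) and -0.16 ± 0.12 at the SC site (adjusted p = 0.265, edgeR), took the opposite signs on the FPKM scale, -0.051 and 0.066.

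**Figure D4:**
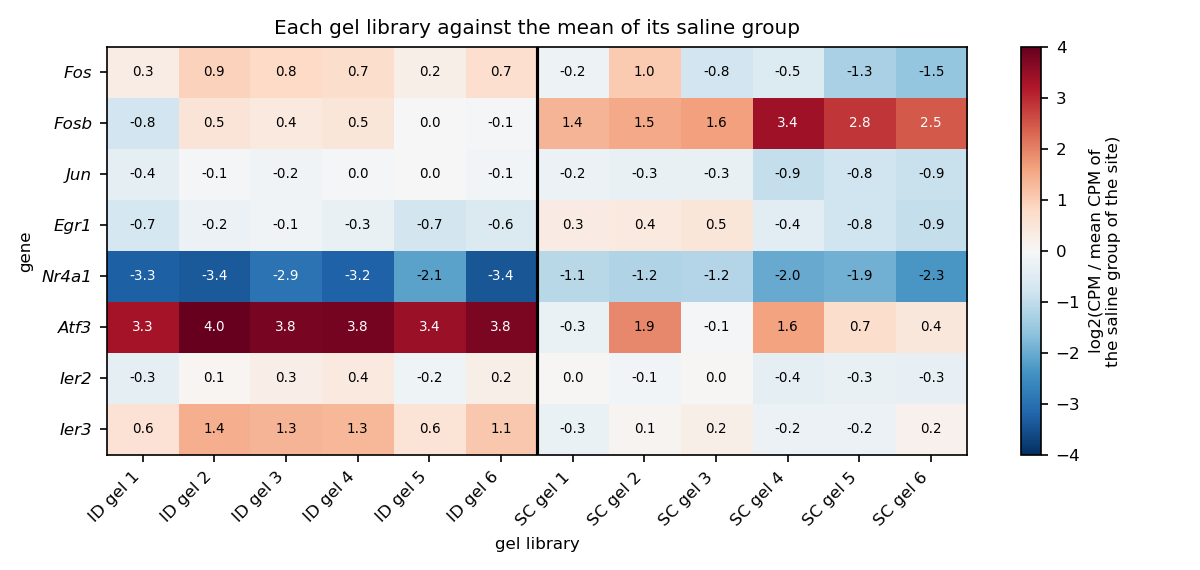
Log2 ratio of each gel library's CPM to the mean CPM of the saline group of its site (colour and number), for 8 genes (rows) and 12 gel libraries (columns). All 6 ID gel libraries are below the saline mean in Nr4a1 and above it in Atf3, and SC gel libraries 1 to 3 differ from 4 to 6 in the direction of Egr1.

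The split within SC gel was not that of a single gene. Libraries 4 to 6 did not overlap with libraries 1 to 3 in 5 of the 8 genes, where 13.3% of all genes did not overlap (5.28% higher and 8.02% lower in libraries 4 to 6). Fosb was higher in libraries 4 to 6, with a mean of 15.0 against 5.54 CPM in libraries 1 to 3. The other 4 were lower there, Jun at 60.1 against 91.8 CPM, Egr1 at 37.5 against 81.4 CPM, Nr4a1 at 20.6 against 38.9 CPM and Ier2 at 28.8 against 36.0 CPM. The same numbers parted 0 of 8 genes in ID gel (23.8% of all genes), 1 in ID saline (10.4% of all genes) and 2 in SC saline (10.3% of all genes). These replicate numbers carry no stated meaning, and the division was chosen with earlier results of these data known.

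The gel groups were also set against each other. In ID gel against SC gel, 5 of 8 genes were called, where 68.1% of all genes were (40.1% higher and 28% lower). Atf3 (1.99 ± 0.37, adjusted p = 4.76e-05, edgeR), Ier3 (1.25 ± 0.15, adjusted p = 1.41e-07) and Jun (0.41 ± 0.12, adjusted p = 0.00377) were higher in ID gel. Fosb (-1.66 ± 0.41, adjusted p = 0.00104, edgeR) and Nr4a1 (-0.91 ± 0.25, adjusted p = 0.00252) were lower in ID gel. With gel libraries 1 to 3 alone, Fosb gave -0.81 and was not called (adjusted p = 0.208, edgeR), and Jun gave 0.024 (adjusted p = 0.874, edgeR). With gel libraries 4 to 6 alone, Nr4a1 gave -0.22 and was not called (adjusted p = 0.582, edgeR). Atf3, Ier3 and Fosb did not overlap between these groups, where 43.8% of all genes did not, and Jun was not called on the FPKM scale (0.086, adjusted p = 0.528, limma).

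In ID saline against SC saline, 0 of 8 genes were called by edgeR's quasi-likelihood test, where 3.22% of all genes were, and 0 of 8 were free of overlap, where 3.54% of all genes were. By the DESeq2 Wald test 0 were called as well, and limma voom called Nr4a1 (0.60, adjusted p = 0.0449). Nr4a1 was the 1 gene with an unadjusted p under 0.05 in edgeR, with a log2 difference of 0.53 ± 0.24 (adjusted p = 0.202). SC saline 5 was the highest of its group in 5 of the 8 genes, Fos, Fosb, Jun, Nr4a1 and Atf3. Without it, Fos in SC gel against SC saline gave 0.15, the opposite sign.

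Per length of transcript, the order of the 8 genes differed between the groups. In ID gel the mean FPKM was highest for Atf3 at 26.5, then Ier3 at 24.1 and Jun at 20.1, and these neighbours overlapped in range. In ID saline Nr4a1 led at 47.1 FPKM, above Jun at 24.3 and Egr1 at 21.5, and none of these overlapped. In SC gel Egr1 at 22.0, Jun at 19.3, Ier3 at 12.9 and Nr4a1 at 12.8 FPKM overlapped each with the next, and in SC saline Nr4a1 led at 31.2 FPKM, overlapping with Jun at 23.7. Atf3 was seventh in ID saline at 2.23 FPKM, and Fosb was last in all groups, at 0.774 FPKM in ID gel, 0.766 in ID saline, 3.09 in SC gel and 0.494 in SC saline.

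Within their families the listed genes did not move as 1 block. Nr4a1 made up a median of 41.3% of the summed FPKM of Nr4a1, Nr4a2 and Nr4a3 in ID gel and 94.3% in ID saline, and 62.3% in SC gel and 88.0% in SC saline. Nr4a3, a close relative of Nr4a1, rose by 2.09 ± 0.22 at the ID site (adjusted p = 1.32e-08, edgeR) and by 0.89 ± 0.22 at the SC site (adjusted p = 0.00153, edgeR). Nr4a3 measured 5.54 ± 2.01 FPKM in ID gel and 1.46 ± 0.31 FPKM in ID saline, and 4.18 ± 0.93 FPKM in SC gel and 1.91 ± 0.51 FPKM in SC saline (SD, n = 6). Nr4a2, named to complete the family after its values were seen, gave 0.32 at the ID site (adjusted p = 0.0498, edgeR) and 0.24 at the SC site (adjusted p = 0.171, edgeR).

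Among the Egr genes, Egr2, a factor of nerve, macrophage and T cell programmes, rose by 1.84 ± 0.20 at the ID site (adjusted p = 1.82e-08, edgeR) and by 0.58 ± 0.20 at the SC site (adjusted p = 0.0168, edgeR). Egr3, known in T cells and in muscle spindles, fell by 1.73 ± 0.22 at the ID site (adjusted p = 2.89e-07, edgeR) and gave -0.31 at the SC site (adjusted p = 0.222, edgeR). In FPKM, Egr2 stood at 32.3 ± 7.19 in ID gel and 10.1 ± 2.49 in ID saline, above Egr1 at 14.4 ± 2.10 in ID gel and below Egr1 at 21.5 ± 1.92 in ID saline (SD, n = 6). The effects of the sites differed for both, by 1.26 in Egr2 (adjusted p = 0.000481, edgeR) and by -1.41 in Egr3 (adjusted p = 0.000435, edgeR).

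Among the AP-1 subunits, Jund rose by 1.39 ± 0.12 at the ID site (adjusted p = 5.16e-10, edgeR) and by 0.49 ± 0.12 at the SC site (adjusted p = 0.00161, edgeR). Jun made up a median of 31.2% of the summed FPKM of Jun and Jund in ID gel and 56.4% in ID saline, and 36.2% in SC gel and 52.1% in SC saline. Fosl1, the Fra-1 gene of migrating keratinocytes, rose by 1.19 ± 0.20 at the ID site (adjusted p = 1.36e-05, edgeR) and by 0.77 ± 0.21 at the SC site (adjusted p = 0.00356, edgeR). Fosl2, the Fra-2 gene, fell by 0.18 ± 0.08 at the ID site (adjusted p = 0.036, edgeR) and by 0.32 ± 0.08 at the SC site (adjusted p = 0.00139, edgeR).

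**Figure D5:**
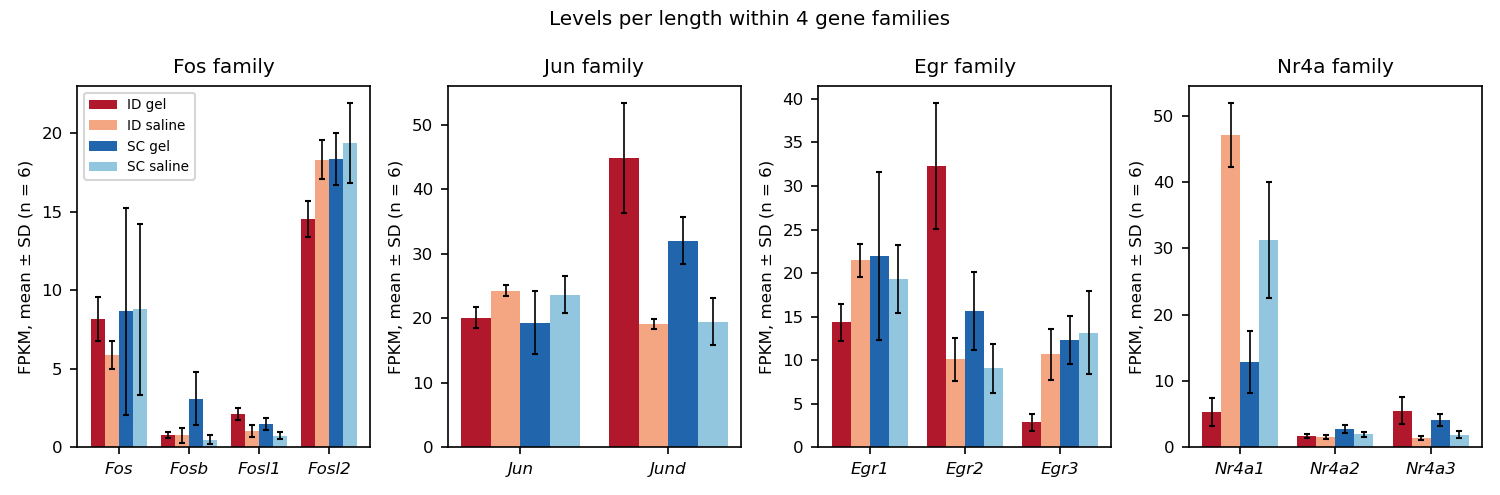
Mean FPKM ± SD (y axis, n = 6) of the Fos, Jun, Egr and Nr4a genes (x axis) in ID gel, ID saline, SC gel and SC saline. Nr4a1 and Nr4a3 stand close together in ID gel (5.36 and 5.54 FPKM) and far apart in ID saline (47.1 and 1.46 FPKM), and Egr2 (32.3 FPKM) stands above Egr1 (14.4 FPKM) in ID gel.

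Other genes around the set were taken from lists written with earlier results of these data known, and they are described by counts at the same threshold, with the shares of all genes called as above. Of 12 AP-1 and leucine zipper genes tested outside the set, 10 rose and 1 fell at the ID site (median log2 fold change 1.05). At the SC site 4 rose and 2 fell (median -0.11). These counts include Jund, Fosl1 and Fosl2, given above. Cebpb, a factor of acute phase and myeloid genes, rose by 1.14 at the ID site, and Maff, a small Maf factor, rose by 0.76 at the SC site where Cebpd fell by 0.76. Of 26 immediate early genes outside the set, 14 rose and 7 fell at the ID site (median 0.36), and 11 rose and 1 fell at the SC site (median 0.23). These include Egr2, Egr3, Nr4a2 and Nr4a3, given above, and Cebpb, which stands in both lists. Ier5l, a relative of Ier2, rose by 2.48 at the ID site, while the antiproliferative genes Btg2 and Tob1 fell by 1.05 and by 1.00. At the SC site Nfkbiz, a cofactor of NF-kappa B, rose by 1.03 and the epidermal factor Klf4 rose by 0.72, and the endothelial factor Klf2 fell by 0.58.

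The genes that switch the immediate early genes on and off were mixed. Of 13 feedback inhibitors of MAP kinase signalling, 3 rose and 6 fell at the ID site (median -0.26), and 4 rose and 2 fell at the SC site (median 0.09). Spred1, an inhibitor of Ras signalling, rose by 1.38 and the ERK phosphatase gene Dusp6 rose by 0.80 at the ID site. The phosphatase gene Dusp8 fell at both sites, by 2.08 at the ID site and by 1.04 at the SC site. Dusp4 fell by 1.14 at the ID site and rose by 0.62 at the SC site. Of 19 upstream kinases and factors, 5 rose and 7 fell at the ID site (median -0.08), and 1 rose and 9 fell at the SC site (median -0.21). The riser at both sites was Elk3, a partner of serum response factor, by 1.93 at the ID site and 0.62 at the SC site, and Map2k6, a kinase of the p38 pathway, fell by 1.84 and by 1.04.

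Genes known as targets of these factors came last. Of 15 AP-1 target genes, 13 rose and 0 fell at the ID site (median 2.46), where 36.6% of all genes rose and 37% fell. At the SC site 9 rose and 0 fell (median 0.91), where 24.7% of all genes rose and 26.1% fell. By the DESeq2 Wald test 0 were likewise lower. The part of AP-1, or of cell types such as the macrophages described above, in these rises was not tested. Timp1, an inhibitor of matrix proteases, measured 441 ± 103 CPM in ID gel and 25.6 ± 5.93 CPM in ID saline, and the monocyte attractant Ccl2 measured 388 ± 105 CPM in ID gel and 1.52 ± 0.67 CPM in ID saline (SD, n = 6). Of 8 Egr1 target genes, 4 rose and 2 fell at each site. Icam1, a leukocyte adhesion gene, rose by 3.82 at the ID site and 1.18 at the SC site, whereas Pdgfa, a growth factor gene, fell by 1.00 at the ID site and by 0.73 at the SC site. F3, the tissue factor gene, fell by 0.95 at the ID site and rose by 0.72 at the SC site. Of 10 heat shock genes, 4 rose and 5 fell at the ID site and 2 rose and 3 fell at the SC site, with Hspa5, the endoplasmic reticulum chaperone gene, higher by 1.33 at the ID site and Hspb1, a small heat shock gene, lower by 2.54 there.

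The genes most like Fos and Atf3 were sought over the 24 libraries by the Pearson correlation of log2 CPM after subtracting each group's mean, among 12807 genes, as a description. For Fos they included Edf1 (0.86), Uqcrfs1 (0.81), Romo1 (0.80) and RGD1308601 (0.80). For Atf3 they were Trem2 (0.84), Leprot (0.83), Fibp (0.83), Atxn10 (0.83) and Ptger2 (0.83), of which Trem2 is a receptor gene of macrophages. The libraries share their depth and composition across all genes, which these values do not separate.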

How the data were processed

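Groups came from the sample titles. Each gene and library has a deposited count of reads and an FPKM, per the file headers, and each FPKM equalled the count over gene length and library total within 0.0325%. The submitters' processing notes name FastQC 0.11.2, Trimmomatic 0.36, StringTie 1.3.3b, DESeq2 1.12.4 and the build Rnor_6.0. For the aligner and for any use of strand in counting, the sources here are silent (not given in the sources used here). Coordinates are as in the file, whose build could not be settled. The table came with 1 line emptied for this work.

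Counts were tested with edgeR 4.0.16 in R 4.3.3 (filterByExpr by group, TMM factors of 0.845 to 1.22, 1 mean per group over 24 libraries, 20 residual degrees of freedom, quasi-likelihood test, Benjamini-Hochberg at 0.05). Each SE is the size of the fitted log2 fold change divided by the root of its F statistic. Other settings were RLE factors, DESeq2 1.42.0, limma 3.58.1 (voom with quality weights, or log2(FPKM + 1) and log2(FPKM + 0.1) for genes with 1 FPKM in 6 libraries), no filter, 10 counts in 12 libraries, robust dispersion, a replicate block, only the groups compared, each library left out, gel replicates 1 to 3 or 4 to 6, and the saline of the other site.

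The genes and lists were chosen with earlier results of these data known. Of the 7 pathway lists, 108 of 110 entries had a row. Up to 3 rises and 3 falls per list and site, with mean log2 CPM of at least 1, could be named, and the 5 genes most like Fos and Atf3, of which 1 is not reported here. Hspa1a and Hspa1b had separate rows, with Hspa1b at 0 CPM in the mean of every group. Hspa1a fell by 0.775 at the ID site (adjusted p = 6.18e-07, edgeR) and rose by 0.42 at the SC site (adjusted p = 0.00158, edgeR). Same-numbered gel and saline libraries correlated at -0.17 to 0.13 (ID) and -0.17 to 0.28 (SC) in their deviations from the group means, and those of both gel groups at -0.13 to 0.42 and of both saline groups at -0.12 to 0.38. Not every pair was above 0.1 in any of these, so the numbers were not treated as pairs. This rule cannot exclude animals or batches shared by some numbers. ID gel and SC gel correlated at 0.39, 0.42 and 0.41 for numbers 1, 2 and 6. The tests without a replicate block assume that the libraries are independent.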

Additional observations from a re-analysis of the deposited data

Results flagged for a closer look

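In 3 of 32 sets of 6 libraries (8 genes in 4 groups) 1 library lay far from the others by Dixon's criterion, which chance gives in about 5% of sets. Fos stood at 30.2 CPM in SC gel 2, with the next library at 12.6 CPM. Nr4a1 stood at 28.5 CPM in ID gel 5, with the next at 16.4 CPM. Fosb stood at 4.39 CPM in SC saline 5, with the next at 2.25 CPM.

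The gel effects of 5 genes differed between the sites in a direct test (ID effect minus SC effect, edgeR's quasi-likelihood test, adjusted by Benjamini-Hochberg over all genes). The differences were 2.77 for Atf3 (adjusted p = 0.000136), 1.12 for Ier3 (0.000111), 0.42 for Jun (0.0361), -1.43 for Nr4a1 (0.00113) and -2.23 for Fosb (0.00292). Jun's difference was lost in 8 of 12 other settings, at 0.044 on the FPKM scale and 0.040 with gel replicates 1 to 3.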

How the results depend on the processing

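Over all settings run, 961 of 1088 values held direction and side of the threshold, 33 gained a call, 45 lost one and 49 changed sign. Atf3, Ier3 and Nr4a1 at the ID site and Fosb and Nr4a1 at the SC site were called under each setting. The number of the 8 genes called at the ID site was 3 in the main fit. It was 4 with the replicate block and with gel replicates 1 to 3 or 4 to 6. It was 5 with voom, either FPKM pseudocount or only the groups compared. Egr1 gained a call there in 10 of 14 other settings. At the SC site the number called was 4 in the main fit. It was 3 with the replicate block or gel replicates 1 to 3, and 7 with gel replicates 4 to 6. The division into gel replicates 1 to 3 and 4 to 6 was chosen with earlier results of these data known. Atf3 lost its SC call in 4 of 14 other settings. Between the saline groups the number called was 0, and 1 with voom. Of all genes, 475 differed between the saline groups, 1014 with DESeq2, 1600 with voom and 316 without a filter. The causes were not tested.

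Leaving out 1 library gave 3 to 4 of the 8 genes at the ID site, 3 to 4 at the SC site, 4 to 6 for the site difference, 5 to 6 between gel groups and 0 to 0 between saline groups, and 132 to 888 of all genes between saline groups (132 without SC saline 2, 888 without SC saline 5). Such fits spanned -0.16 to 0.11 for Egr1, -0.76 to 0.15 for Fos and -0.050 to 0.10 for Ier3 at the SC site, and -0.066 to 0.051 for Jun between saline groups.

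Signs also changed on the FPKM scale. There the median over 13200 genes moved to -0.104 (ID), 0.192 (SC) and -0.204 (difference), from 0.022, 0.001 and 0.145 over the same number of genes. With log2(FPKM + 1), with or without filter, and then + 0.1, Egr1 at the SC site gave 0.087 and 0.086, Ier3 at the SC site 0.20 and 0.21, and Jun between saline groups 0.043 and 0.044. Ier2 gave -0.051 and -0.058 at the ID site, 0.066 and 0.074 at the SC site, -0.12 and -0.13 for the difference, and -0.17 and -0.19 between gel groups. Ier3 at the SC site was 0.014 with RLE factors, 0.013 with DESeq2 and 0.022 with voom, which gave 0.0011 for Jun between saline groups. Gel replicates 1 to 3 gave 0.44 for Egr1, 0.25 for Fos, 0.022 for Ier2 and 0.070 for Ier3 at the SC site, and -0.20 for Fos and -0.10 for Ier2 between gel groups. Gel replicates 4 to 6 gave 0.29 for Egr1 between gel groups and 0.16 for its difference. The saline of the other site gave -0.019 for Fos at the ID site and 0.38 at the SC site.

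With the replicate block, 10918 of all genes were called at the ID site, 7542 at the SC site, 8250 for the difference, 9967 between gel groups and 529 between saline groups. Of the 8 genes, 4, 3, 4, 5 and 0 were called in those comparisons, with Egr1 at the ID site gained (adjusted p = 0.0257) and Atf3 at the SC site (0.0689) and the Jun difference (0.0556) lost. A library correlated best with its own number in 0 of 6 pairs of ID gel and ID saline, 1 of 6 of SC gel and SC saline, 3 of 6 of ID gel and SC gel and 2 of 6 of ID saline and SC saline. Of the 8 genes, Fosb had the widest SE at both sites, 0.42 (ID) and 0.43 (SC). The SE did not follow counts alone, at 0.41 for Atf3 (7477 counts in all) and 0.15 for Ier3 (6383) at the ID site.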
